A study of Mus musculus with 6 samples.

Results

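The genes described here are the machinery of macroautophagy, a set of 40 named genes that runs from the kinase complex that starts an autophagosome to the receptors that bring cargo into it. Each gene was read by the probe set that carries its symbol alone and, where there were several, by the one with the highest mean over the 6 arrays. Of the 40 genes 39 were measured, out of 30712 named genes on the array, and Optn was not analysed here. Uvrag had 2 probe sets and each of the other 38 genes had 1. In the KO-labelled group, 3 arrays read RNA of inguinal subcutaneous white fat from male C57BL/6 mice carrying Tfg flox alleles together with Adipoq-ERT2Cre, a recombinase that tamoxifen switches on. In the WT-labelled group, 3 arrays read the same depot from mice with the floxed alleles and no Cre. All mice were 2 months old, received tamoxifen for 5 days, and gave fat 2 weeks after it. The adiponectin promoter directs Cre to adipocytes, so the other cells of the depot keep Tfg. The arrays are labelled biological replicates and nothing states which animals they came from, so p-values measure the spread between these samples.

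Autophagy encloses a portion of cytoplasm in a double membrane and delivers it to the lysosome. The ULK kinase complex starts the process, a PI3-kinase complex marks the membrane with the lipid PI3P, and WIPI, ATG2 and ATG9 proteins supply membrane. Conjugation enzymes then attach proteins of the ATG8 family, the LC3 and GABARAP proteins, to that membrane, where cargo receptors such as p62 bind them. Endoplasmic reticulum exit sites, which the TFG protein helps to organise, are among the known places where autophagosomes form. In fat, autophagy is known for its part in adipocyte differentiation and in the removal of mitochondria from beige adipocytes.

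Tfg itself did not separate the labels in the direction of a deletion. It read 7.99, 8.21 and 8.03 on the KO-labelled arrays, against 7.97, 7.94 and 7.91 on the WT-labelled arrays. By limma the log2 difference was 0.14 ± 0.11 (SE; adjusted p = 0.345), and a 2-sided exact permutation test gave p = 0.1, which 3 arrays a group cannot go below. Its target exons are unknown, so the labels were only partly checked. Every direction below is therefore between arrays labelled KO and arrays labelled WT.

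Array medians lay between 6.47 and 6.76 on the KO-labelled arrays and between 6.96 and 7.02 on the WT-labelled arrays, and the median over all probe sets changed by -0.37. KO 2 stood apart, correlating at 0.96 and 0.965 with the other KO-labelled arrays, against 0.986 between those. Adipocyte markers were unevenly read. Adipoq stood at 12.77 ± 0.22 on KO-labelled and 9.84 ± 1.11 on WT-labelled arrays (SD, n = 3 each). On WT-labelled arrays the 12 measured markers had a median level of 9.32, against 6.98 for all probe sets. Adig and Lep read only 6.48 and 6.53 there. Over all 65956 probe sets limma called 3509 as higher and 10282 as lower in the KO-labelled group. That split depended on scaling, with 4032 higher and 2212 lower after quantile normalization. Centring array medians gave 5146 higher and 3259 lower. In bulk tissue, fewer cells of a type and less RNA per cell cannot be told apart.

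The proteins that coat the autophagosome and the receptors that bind them held most of the autophagy genes that rose. Of the 39 measured genes 13 rose and 0 fell in the KO-labelled group (limma, adjusted p under 0.05), with 19 higher and 0 lower at an unadjusted p under 0.05. Calls in all probe sets came to 5.32% higher and 15.6% lower, and in protein-coding genes to 10.7% higher and 10.1% lower. The ATG8 family and the cargo receptors held 9 of the 13 rises among their 11 measured genes, with a median change of 1.27. The other 28 genes held 4 rises, with a median change of 0.23. The ATG8 family and cargo receptors were also brighter. Their median signal was 8.94 on KO-labelled and 7.8 on WT-labelled arrays, against 7.23 and 7.0 for the other 28. Role was not separated from signal level, and whether these roles differ from each other was not tested. The median change of all 39 genes was 0.35, against -0.18 for protein-coding genes and -0.37 for all probe sets.

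The rises have to be read against the level of the genes. Among 2540 protein-coding genes with a mean log2 signal of at least 8, a level chosen after the values were seen, 45.3% were called higher and 13.3% lower. Among the 16697 below it, 5.41% were called higher and 9.67% lower. Of the 11 autophagy genes at or above that level 10 rose, with a median change of 1.27 against 0.69 for protein-coding genes there, and Becn1 did not pass. Of the 28 below it 3 rose, namely Ulk2, Pik3c3 and Nbr1, with a median change of 0.23 over the 28 against -0.20 for protein-coding genes. The mean was taken over all 6 arrays, so a rise itself helped a gene to reach the level, also among the protein-coding genes. Map1lc3b, Gabarap, Gabarapl2, Tax1bp1 and Wipi2 had WT-labelled means under 8 and reached it only with their KO-labelled values. The shares at this level are therefore a description and lend the rises no support.

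**Figure D1:**
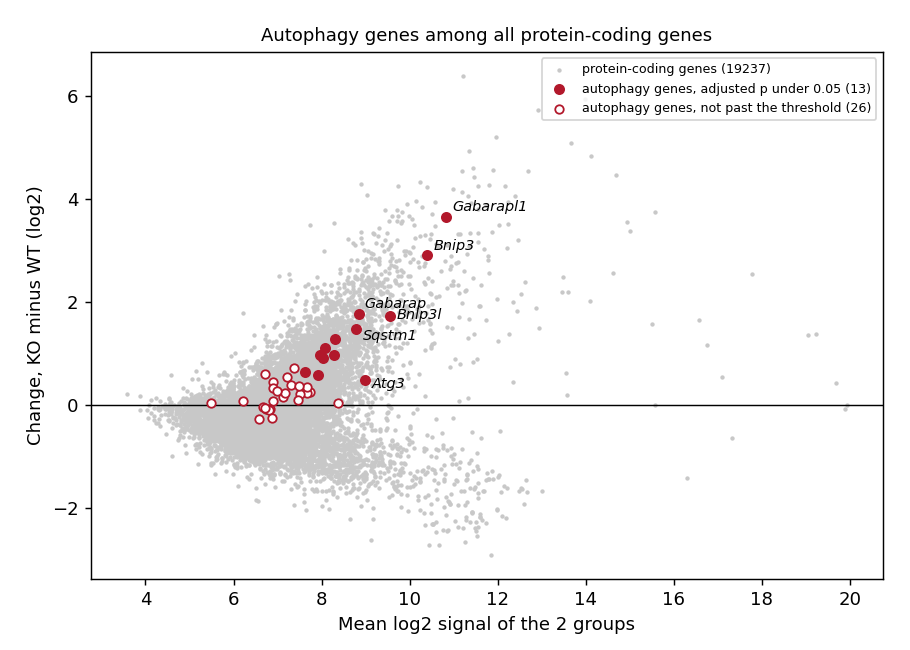
Change between KO-labelled and WT-labelled arrays (log2, vertical) against the mean log2 signal of the groups (horizontal) for 19237 protein-coding genes in grey, with the 13 autophagy genes that rose as filled and the 26 others as open points. The rises lie among the brighter genes, where 45.3% of protein-coding genes with a mean of at least 8 were also called higher.

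All 3 KO-labelled values lay above all 3 WT-labelled values in 23 of the 39 genes and below them in 2. Over all probe sets these shares were 11.1% and 44.9%, and over protein-coding genes 23.3% and 41%. KO 2 had the highest value of the 6 arrays in 12 of the 13 genes that rose, Pik3c3 being the exception. Without KO 2, 11 of the 13 still passed and no other autophagy gene did, against 4.62% of probe sets and 9.91% of protein-coding genes called higher. Pik3c3 and Atg3 lost their calls there (adjusted p = 0.0617 and 0.0728). Without KO 3, WT 1, WT 2 or WT 3, 0 of 65956 probe sets passed, with 28697, 23757, 25102 and 21579 at an unadjusted p under 0.05. Without those arrays, between 15 and 18 autophagy genes were higher and 0 lower at an unadjusted p under 0.05.

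**Figure D2:**
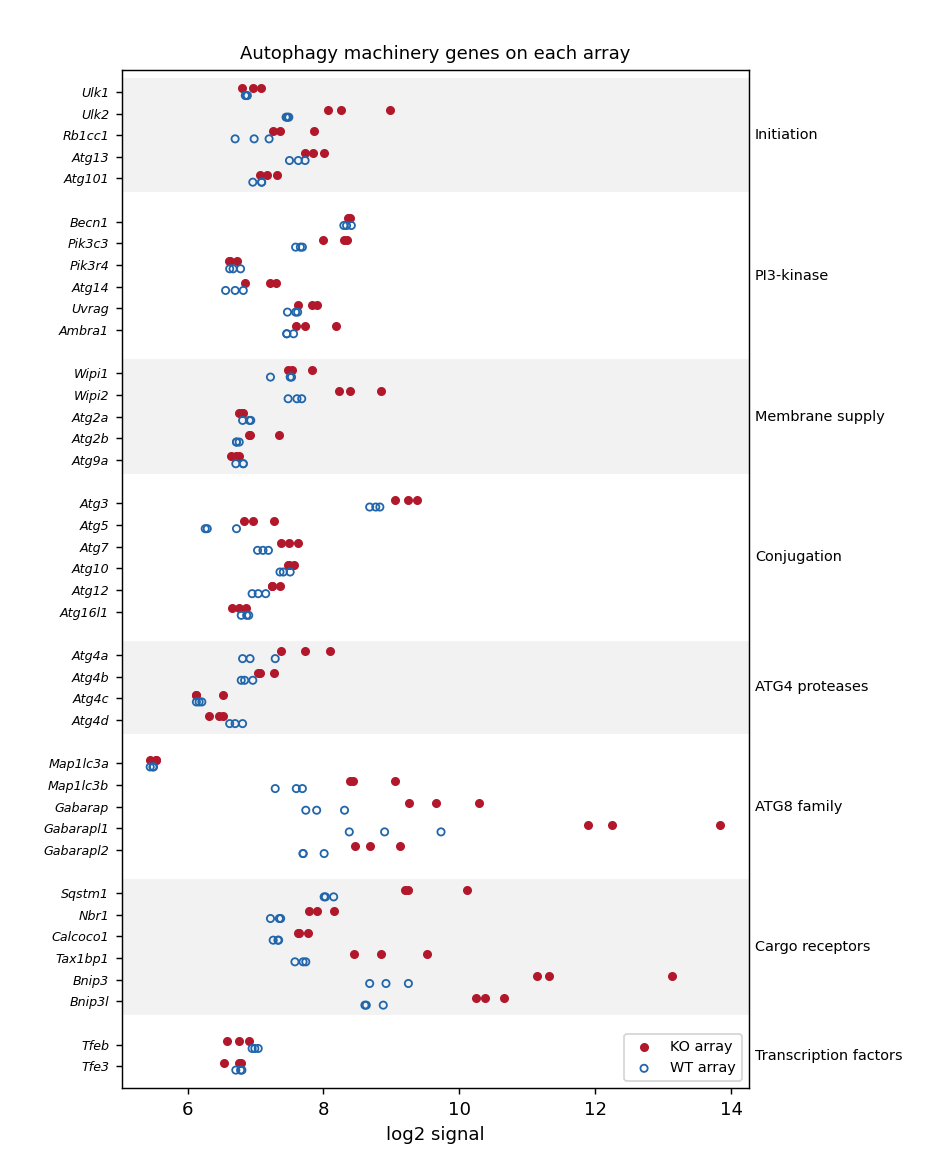
Log2 signal (horizontal) of the 39 autophagy genes, grouped by role, with KO-labelled arrays as filled points above and WT-labelled arrays as open points below in each row. All KO-labelled points lie above all WT-labelled points in 4 of 5 ATG8 family genes, in all 6 measured cargo receptor genes and in 13 of the 28 genes of the other roles, and below them in 2 of those 28.

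Among the ATG8 proteins, the GABARAP branch held the largest rise. Gabarapl1, which encodes a GABARAP-like protein that is conjugated to autophagosome membranes, read 11.89, 13.84 and 12.24 on the KO-labelled arrays, against 8.90, 9.73 and 8.38 on the WT-labelled arrays. The lowest KO-labelled value lay more than 2 units above the highest WT-labelled value. Its rise of 3.65 ± 0.59 (SE) on the log2 scale is 12.6-fold (adjusted p = 0.0354), and 3.06 without KO 2. Gabarap, the founding member of the branch, read 9.26, 10.29 and 9.65 on the KO-labelled arrays, against 7.90, 8.31 and 7.74 on the WT-labelled arrays. The groups did not overlap, and the rise was 1.75 ± 0.30 (SE), or 3.36-fold (adjusted p = 0.0354). Gabarapl2, whose protein is also called GATE-16, read 8.47, 9.13 and 8.68 on the KO-labelled arrays, against 7.70, 8.01 and 7.70 on the WT-labelled arrays. It rose by 0.96 ± 0.20 (SE), or 1.94-fold (adjusted p = 0.0379), again without overlap.

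The LC3 branch gave a rise and a flat reading. Map1lc3b encodes LC3B, the protein most used as a marker of autophagosomes. It read 8.44, 9.05 and 8.39 on the KO-labelled arrays, against 7.60, 7.69 and 7.29 on the WT-labelled arrays. Its rise was 1.10 ± 0.22 (SE), or 2.14-fold (adjusted p = 0.0365). Map1lc3a, its paralog, read 5.45, 5.53 and 5.54 on the KO-labelled arrays, against 5.45, 5.50 and 5.49 on the WT-labelled arrays. Those ranges overlapped, and the difference of 0.03 ± 0.10 (SE) did not pass (adjusted p = 0.84). Without detection calls it is not known whether that probe set measured anything above background.

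Receptors for mitochondria rose beside the ATG8 genes. Bnip3 encodes a mitochondrial outer membrane protein that binds ATG8 proteins and is known for its induction by hypoxia. It read 11.14, 13.13 and 11.32 on the KO-labelled arrays, against 9.25, 8.92 and 8.68 on the WT-labelled arrays, and rose by 2.91 ± 0.54 (SE), or 7.53-fold (adjusted p = 0.0357). KO 2 stood well above the other arrays, and without it the change was 2.28. Bnip3l, also called Nix, encodes the receptor that clears mitochondria from maturing red cells. It read 10.37, 10.66 and 10.24 on the KO-labelled arrays, against 8.61, 8.88 and 8.63 on the WT-labelled arrays. Its rise of 1.72 ± 0.16 (SE), or 3.29-fold (adjusted p = 0.0354), moved little without KO 2, to 1.60.

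Receptors for ubiquitin-tagged cargo rose as well. Sqstm1 encodes p62, which carries ubiquitinated proteins to LC3 and is itself degraded with them. It read 9.25, 10.11 and 9.20 on the KO-labelled arrays, against 8.01, 8.15 and 8.03 on the WT-labelled arrays, a rise of 1.46 ± 0.26 (SE), or 2.74-fold (adjusted p = 0.0354). Tax1bp1, which encodes a receptor that acts with p62 on aggregates, read 8.45, 9.53 and 8.85 on the KO-labelled arrays, against 7.74, 7.70 and 7.58 on the WT-labelled arrays. It rose by 1.27 ± 0.28 (SE), or 2.41-fold (adjusted p = 0.0383), with no overlap. Nbr1, a partner of p62, read 7.79, 8.16 and 7.90 on the KO-labelled arrays, against 7.37, 7.22 and 7.35 on the WT-labelled arrays, and rose by 0.64 ± 0.14 (SE; adjusted p = 0.0383). Calcoco1, whose product is known as a receptor for the endoplasmic reticulum and the Golgi, read 7.62, 7.77 and 7.64 on the KO-labelled arrays, against 7.26, 7.34 and 7.33 on the WT-labelled arrays. Its groups did not overlap either, but the difference of 0.37 ± 0.11 (SE) missed the threshold (adjusted p = 0.0535).

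Promoter sequence is shown for the genes with the largest rises, Gabarapl1 and Bnip3, and for Atg3, the gene of the set with a CLEAR-like motif in its window. CLEAR elements are the sites that TFEB and TFE3, transcription factors of lysosome and autophagy genes, are known to bind. Windows of 300 bases, from 250 before to 50 after the annotated start, came from RefSeq on GRCm38.p6, and 33 of the 40 genes matched by symbol, with 40 windows. Capitals mark matches to TCACGTGA (CLEAR-like), CACGTG (an E-box, which lies inside the first motif) or TGTTTAC (FOXO-like), searched on both strands. Each line reads 5′ to 3′ on the strand of the gene.
Gabarapl1 promoter, chr6:129532942-129533241, plus strand: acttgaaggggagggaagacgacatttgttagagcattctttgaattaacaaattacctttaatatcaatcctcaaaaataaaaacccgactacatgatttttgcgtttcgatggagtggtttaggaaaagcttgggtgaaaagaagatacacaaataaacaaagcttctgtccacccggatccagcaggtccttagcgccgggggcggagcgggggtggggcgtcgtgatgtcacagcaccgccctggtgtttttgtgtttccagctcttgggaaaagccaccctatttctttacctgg
Bnip3 promoter, chr7:138909457-138909756, minus strand: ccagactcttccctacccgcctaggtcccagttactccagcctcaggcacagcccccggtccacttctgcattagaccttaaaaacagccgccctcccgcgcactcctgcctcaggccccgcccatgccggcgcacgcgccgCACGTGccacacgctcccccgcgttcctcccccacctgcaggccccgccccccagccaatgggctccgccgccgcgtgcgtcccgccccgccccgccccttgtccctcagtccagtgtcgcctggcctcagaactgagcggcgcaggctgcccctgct
Atg3 promoter, chr16:45158579-45158878, plus strand: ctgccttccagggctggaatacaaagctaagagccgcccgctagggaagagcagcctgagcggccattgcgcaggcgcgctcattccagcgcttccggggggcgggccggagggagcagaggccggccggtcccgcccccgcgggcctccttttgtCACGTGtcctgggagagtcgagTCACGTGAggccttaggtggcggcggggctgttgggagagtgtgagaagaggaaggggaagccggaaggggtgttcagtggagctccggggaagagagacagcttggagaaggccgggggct
The Gabarapl1 window held none of the motifs. The Bnip3 window held an E-box that starts at base -108 from the gene's start. The Atg3 window held the CLEAR-like motif at -72 and a further E-box at -94. Over the whole set TCACGTGA lay in 1 of the 40 windows, against 0.974% of all 32851 windows. CACGTG lay in 5 of the 40 (Atg3, Atg5, Atg7, Atg14 and Bnip3), against 7.15% of all windows, and TGTTTAC in 0 of 40, against 3.65%. Of 11 genes that rose and had a window, 2 held an E-box, as did 3 of 21 that did not pass. A match in these letters is a description of the window and does not show that a factor binds there.

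Most genes of the initiation complex did not pass, and 20% of them were called higher, against 10.7% of protein-coding genes. Ulk2, which encodes a kinase that starts autophagy, read 8.26, 8.98 and 8.07 on the KO-labelled arrays, against 7.45, 7.49 and 7.47 on the WT-labelled arrays. It rose by 0.97 ± 0.24 (SE), or 1.95-fold (adjusted p = 0.0447). The paralog Ulk1 read 6.96, 7.08 and 6.80 on the KO-labelled arrays, against 6.88, 6.86 and 6.85 on the WT-labelled arrays. The Ulk1 groups overlapped, at a difference of 0.08 ± 0.12 (SE; adjusted p = 0.575). Whether the change of the paralogs differs was not tested. Rb1cc1, which encodes the scaffold FIP200, differed by 0.53 ± 0.21 (SE; adjusted p = 0.0997). The adaptor genes Atg13 and Atg101 differed by 0.24 and 0.14 (adjusted p = 0.178 and 0.365).

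In the PI3-kinase complex the catalytic subunit gene was the 1 of 6 genes to pass. That 16.7% lies near the 10.7% of protein-coding genes called higher. Pik3c3, which encodes the lipid kinase VPS34, read 8.0, 8.30 and 8.34 on the KO-labelled arrays, against 7.66, 7.69 and 7.59 on the WT-labelled arrays. It rose by 0.57 ± 0.13 (SE), or 1.48-fold (adjusted p = 0.0406). Becn1, which encodes the core subunit Beclin-1, read 8.36, 8.38 and 8.39 on the KO-labelled arrays, against 8.41, 8.34 and 8.30 on the WT-labelled arrays. These values overlapped fully, at a difference of 0.03 ± 0.10 (SE; adjusted p = 0.841). Atg14, which directs the complex to autophagosomes, differed by 0.43 (adjusted p = 0.0868), and Ambra1, a Beclin-1 regulator, by 0.35 (adjusted p = 0.16). Pik3r4, the regulatory subunit gene, stood at -0.04 (adjusted p = 0.795). The 2 probe sets of Uvrag, an alternative partner of Beclin-1, disagreed in sign at 0.22 and -0.27, and neither passed (adjusted p = 0.189 and 0.162).

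Among genes for membrane supply, Wipi2 rose. Its product binds PI3P and recruits the conjugation machinery. It read 8.23, 8.85 and 8.39 on the KO-labelled arrays, against 7.68, 7.61 and 7.48 on the WT-labelled arrays, a rise of 0.90 ± 0.19 (SE), or 1.87-fold (adjusted p = 0.037). Its paralog Wipi1 overlapped between the groups, at 7.54, 7.83 and 7.48 on the KO-labelled arrays and 7.51, 7.53 and 7.22 on the WT-labelled arrays (adjusted p = 0.324). The lipid transfer protein gene Atg2b differed by 0.32 (adjusted p = 0.135). Its paralog Atg2a and the lipid scramblase gene Atg9a stood at -0.09 and -0.08 (adjusted p = 0.474 and 0.529), and turned to 0.24 and 0.25 once array medians were centred.

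The conjugation enzymes held 1 rise among 6 genes, and this 16.7% lies near the 10.7% of protein-coding genes called higher. Atg3, which encodes the enzyme that hands ATG8 proteins to lipid, read 9.06, 9.38 and 9.25 on the KO-labelled arrays, against 8.83, 8.77 and 8.68 on the WT-labelled arrays. Its rise of 0.47 ± 0.13 (SE), or 1.39-fold, passed narrowly (adjusted p = 0.0494). Atg5, Atg7 and Atg12 stood apart between the groups without passing. Atg7, the gene of the activating enzyme, read 7.38, 7.63 and 7.49 on the KO-labelled arrays, against 7.11, 7.19 and 7.03 on the WT-labelled arrays (difference 0.39 ± 0.12, SE; adjusted p = 0.0587). Atg5, whose product is joined to ATG12, differed by 0.60 ± 0.19 (SE; adjusted p = 0.0607). Atg12 and Atg10 differed by 0.23 and 0.09 (adjusted p = 0.144 and 0.501). Atg16l1, which positions the conjugate on the membrane, stood at -0.10 (adjusted p = 0.495).

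None of the 4 ATG4 protease genes passed limma's test, where 10.7% of protein-coding genes were called higher. At an unadjusted p under 0.05, 1 of the 4 passed. The ATG4 enzymes trim ATG8 proteins before conjugation and release them from lipid. Atg4a read 7.37, 8.09 and 7.73 on the KO-labelled arrays, against 7.29, 6.81 and 6.92 on the WT-labelled arrays, a difference of 0.72 ± 0.23 (SE; adjusted p = 0.0616). Atg4d lay the other way, with all KO-labelled values (6.46, 6.31 and 6.52) below all WT-labelled values (6.62, 6.70 and 6.81), at -0.28 ± 0.12 (SE; adjusted p = 0.11). Relative to the median of all probe sets, which lay at -0.37, it was not lower, and after quantile normalization its change was 0.07. Atg4b and Atg4c differed by 0.26 and 0.08 (adjusted p = 0.134 and 0.654).

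The transcription factor genes Tfeb and Tfe3, whose proteins drive autophagy and lysosome genes and are controlled mainly by their entry into the nucleus, did not pass. Tfeb read 6.90, 6.58 and 6.75 on the KO-labelled arrays, against 7.04, 6.95 and 6.99 on the WT-labelled arrays, a difference of -0.25 ± 0.12 (SE; adjusted p = 0.153). Tfe3 read 6.76, 6.54 and 6.78 on the KO-labelled arrays, against 6.78, 6.71 and 6.80 on the WT-labelled arrays (difference -0.07 ± 0.12, SE; adjusted p = 0.638). Tfeb lay lower on every KO-labelled array, while Tfe3 overlapped. With array medians centred the differences were 0.08 and 0.26, so neither has a settled direction.

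**Figure D3:**
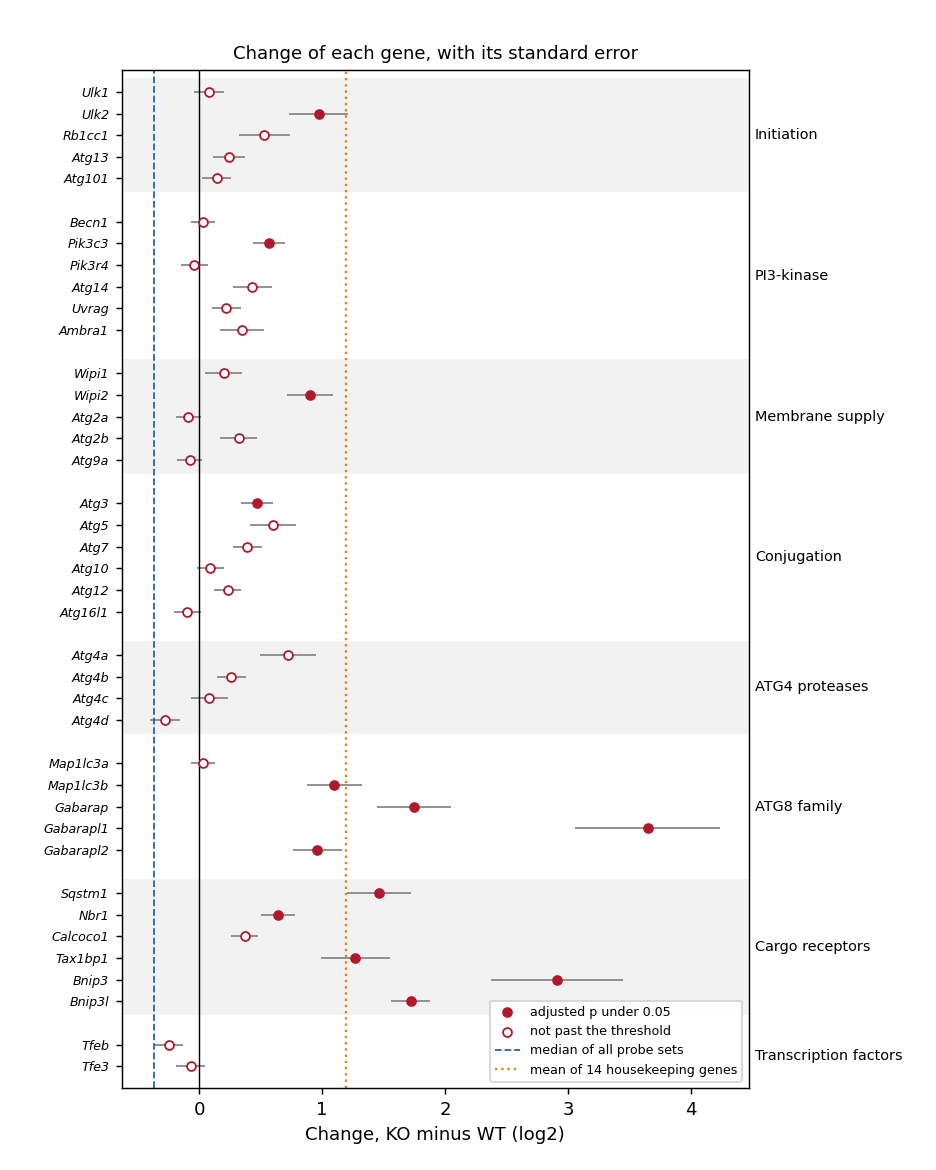
Change between KO-labelled and WT-labelled arrays (log2, horizontal) with its standard error for the 39 autophagy genes by role, filled where the adjusted p was under 0.05. All 39 lie to the right of the median of all probe sets (-0.37), and 37 have a change above the median of protein-coding genes (-0.18). Beyond the mean change of 14 housekeeping genes (1.19) lie 6.

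Other lists moved between the same arrays. Of 18 housekeeping genes 14 were measured, of which 7 rose and 0 fell, with a mean change of 1.19. Their single changes ran from -0.28 to 4.83 around a median of 1.11. Which autophagy genes exceed the mean therefore depends on the housekeeping genes chosen. Among the 13 autophagy genes that rose, 6 exceeded that mean (Gabarapl1, Bnip3, Gabarap, Bnip3l, Sqstm1 and Tax1bp1) and 7 did not. Relative to it, Gabarapl1 was 2.47 and Bnip3 1.73 higher, while Map1lc3b stood at -0.09. Olfactory and vomeronasal receptor genes, which are not known to act in fat, had a median change of -0.82, with 0 of 1383 called higher and 454 lower, and 935 at an unadjusted p under 0.05. Their median signal was 6.66 on KO-labelled and 7.46 on WT-labelled arrays. Of the 39 autophagy genes 23 had a WT-labelled mean under 7.46, among them 1 of the 13 that rose, so their level above background is uncertain.

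Of 12 measured adipocyte markers 9 rose and 0 fell between the same arrays, with a median change of 2.73, and their mean log2 signal ran from 11.75 to 12.99 on KO-labelled and from 8.59 to 10.08 on WT-labelled arrays. The marker mean was 11.9, 12.99 and 11.75 on KO 1, KO 2 and KO 3. On WT 1, WT 2 and WT 3 it was 9.66, 10.08 and 8.59. Gabarapl1 and Bnip3 were both highest on KO 2 and lowest on KO 1 among the KO-labelled arrays. Among the WT-labelled arrays both were lowest on WT 3, with Gabarapl1 highest on WT 2 and Bnip3 on WT 1. All 9 measured endothelial markers rose, with a mean of 8.82 to 9.55 on KO-labelled and 7.05 to 7.32 on WT-labelled arrays. Of 10 macrophage markers 4 rose and 0 fell, with a mean of 7.96 to 8.19 on KO-labelled and 7.42 to 7.55 on WT-labelled arrays. Of 8 fibroblast and progenitor markers 1 rose, and of 7 smooth muscle and pericyte markers 2 rose. Among 9 lymphocyte markers 3 fell, as did 1 of 6 epithelial markers. Of all protein-coding genes 10.7% were called higher and 10.1% lower. The part of cell composition in the rises was not tested.

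Skeletal muscle markers differed among the KO-labelled arrays. Of 10 markers 0 passed limma's test in either direction, or at an unadjusted p under 0.05, and their mean signal was 8.65, 10.07 and 6.88 on KO 1, KO 2 and KO 3, against 6.97 to 7.05 on the WT-labelled arrays. On KO 3 Gabarapl1 was 3.24, Bnip3 2.37, Gabarap 1.67 and Bnip3l 1.53 above the WT-labelled mean. These genes were called with KO 3 among the arrays, so its values are a description, and the part of muscle tissue in the rises was not tested.

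**Figure D4:**
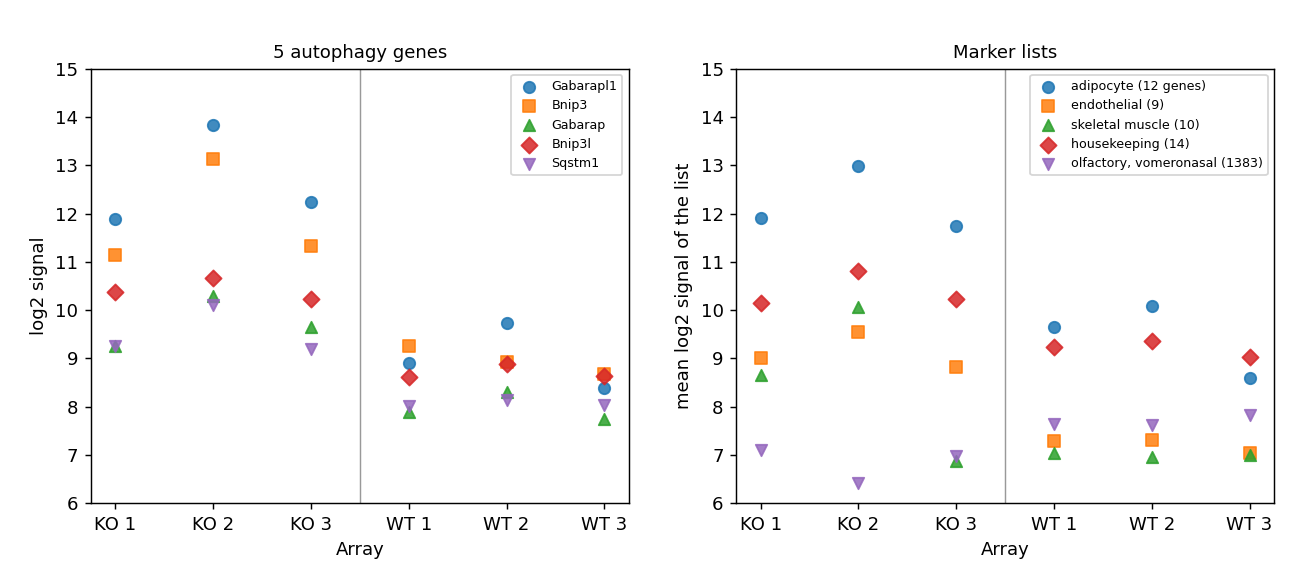
Log2 signal of 5 autophagy genes (left) and mean log2 signal of marker lists (right) on each KO-labelled and WT-labelled array. Gabarapl1 and Bnip3 are highest on KO 2, where adipocyte and skeletal muscle markers are highest too. On KO 3 muscle markers read 6.88, and Gabarapl1 read 12.24 and Bnip3 11.32.

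**Figure D5:**
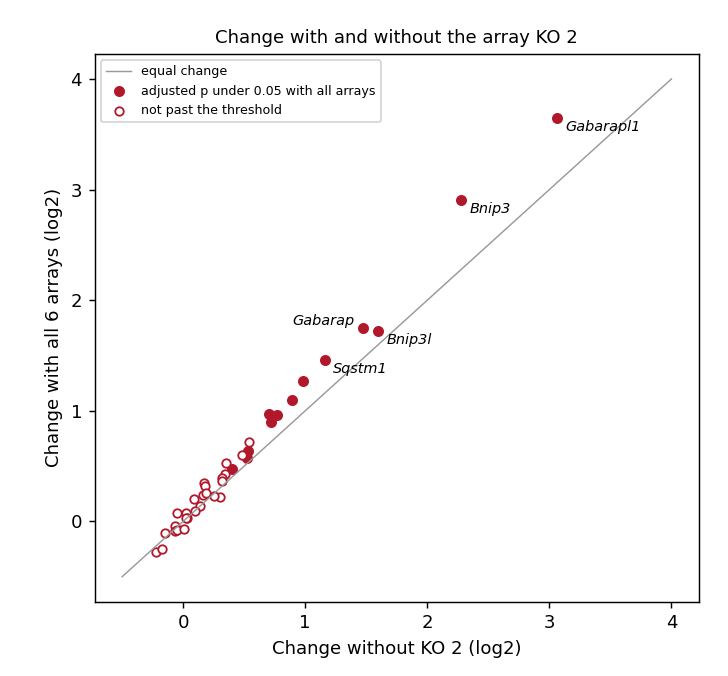
Change of the 39 autophagy genes with all 6 arrays (vertical) against the change without KO 2 (horizontal), both KO-labelled minus WT-labelled on the log2 scale, with a line of equal change. Most rises are smaller without KO 2, as for Gabarapl1 at 3.06 and Bnip3 at 2.28.

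Further genes of the pathway came from a list of 94, of which 88 were measured. Of the 88 genes 25 rose (adjusted p between 0.0354 and 0.0495) and 0 fell by limma's test, and 4 were lower at an unadjusted p under 0.05. Their median change was 0.39. The share that rose was 28.4%, against 10.7% of protein-coding genes. It was 45.3% of those with a mean log2 signal of at least 8 and 5.41% of those below it. The 88 genes had a median signal of 7.64 on KO-labelled and 7.16 on WT-labelled arrays. Without KO 2, 26 of the 88 were called higher and 0 lower, but not all were the same genes. Bcl2l1 and Bcl2l13 lost their calls there (limma, adjusted p = 0.0516 and 0.0548). Atl3 was among the genes that gained one (adjusted p = 0.0395).

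Genes for autophagy of the endoplasmic reticulum and for the UFM1 conjugation that acts in it held 6 rises among 12. Against this 50%, 10.7% of protein-coding genes were called higher. It was 45.3% of those with a mean log2 signal of at least 8 and 5.41% of those below it. The 12 genes had a median signal of 8.22 on KO-labelled and 7.45 on WT-labelled arrays. Rtn3, a reticulon that shapes and clears tubules, read 10.16, 11.35 and 10.45 on the KO-labelled arrays, against 8.68, 8.39 and 8.52 on the WT-labelled arrays. It rose by 2.12 ± 0.31 (SE), or 4.36-fold. Sec62, a translocon subunit that also serves as a receptor, read 9.19, 10.07 and 9.22 on the KO-labelled arrays, against 7.96, 7.80 and 7.81 on the WT-labelled arrays, and rose 3.11-fold. Neither gene overlapped between the groups. Ufm1, the ubiquitin-like modifier gene, rose 3.17-fold, its adaptor gene Ddrgk1 2.42-fold and its ligase gene Ufl1 1.52-fold. Retreg2, of the reticulon-like receptor family, rose 1.76-fold. Its relative Retreg1, the receptor FAM134B, had all KO-labelled values (6.80, 6.64 and 6.69) below all WT-labelled values (7.07, 7.08 and 7.03) without passing, at -0.35 ± 0.10 (SE; adjusted p = 0.0566). Atl3, Ccpg1, Tex264, Retreg3 and Cdk5rap3 did not pass, at changes of 1.06, 0.44, 0.33, 0.06 and -0.03.

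Of 14 genes for fusion of autophagosomes with lysosomes 2 rose, and this 14.3% lies near the 10.7% of protein-coding genes called higher. Rab7, the small GTPase of late endosomes, read 11.97, 13.06 and 11.76 on the KO-labelled arrays, against 9.95, 10.22 and 9.63 on the WT-labelled arrays, a rise of 2.33 ± 0.37 (SE), or 5.03-fold. Vps41, a subunit of the HOPS tether, rose 2.00-fold. Of 15 further genes of nucleation and membrane supply 5 rose (33.3%, against the same 10.7%). The largest was Sh3glb1, whose product binds UVRAG and bends membranes. It read 12.74, 13.71 and 12.92 on the KO-labelled arrays, against 10.26, 10.87 and 8.77 on the WT-labelled arrays, and rose 8.92-fold with WT 3 lowest. Tmem59, Ei24, Snx18 and Bcl2l1 rose 2.71-fold, 2.63-fold, 1.77-fold and 1.59-fold. Of 11 other receptor and mitophagy genes 4 rose (36.4%, against the same 10.7%). They were the ferritin receptor gene Ncoa4 at 2.04-fold, Tollip at 1.93-fold, the prohibitin gene Phb2 at 1.87-fold and Bcl2l13 at 1.44-fold.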

How the data were processed

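Whole-transcript arrays measured total RNA of inguinal white fat, prepared with the GeneChip WT Pico kit per the labels' protocols. The values are log2 signals per probe set, as deposited by the authors, with Transcriptome Analysis Console listed, in no stated role, per the submitters' processing notes. Background correction, normalization, summary method and build were not given in the sources used here. Detection calls and scan dates were not used here, so no batch was examined. The number of arrays limits the precision.

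GEO's platform annotation, its symbols brought up to date from RefSeq's GRCm38.p6 gene table, gave 1 symbol for 31269 of 65956 probe sets, several for 1481 and none for 33206. limma 3.58.1 in R 4.3.3 (lmFit and eBayes without trend) was fitted to all probe sets on the labelled genotype alone, p-values were adjusted by Benjamini-Hochberg across them, and an adjusted p under 0.05 was a call. The procedure was also run on simulated arrays with independent noise. Those lack the differences between whole arrays seen here, so that run does not bear on how far the calls can be trusted. The autophagy genes and the lists were chosen with earlier results of these data known. The rule for named genes took all 40 autophagy genes, further pathway genes that passed, the endoplasmic reticulum list and Tfg. Alternatives covered scaling, a filter on dim probe sets, the eBayes prior, array weights, a replicate block, probe sets with 1 symbol, averaging the probe sets of a gene, another threshold and leaving out each array. Python 3.11.15 with pandas 2.3.3, scipy 1.17.1 and matplotlib 3.10.9 prepared tables and plots.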

Additional observations from a re-analysis of the deposited data

How the results depend on the processing

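On the deposited values 13 autophagy genes and 25 further pathway genes rose. Leaving out each array in turn gave 0 to 14 and 0 to 27, and over all probe sets 0 to 3469 higher and 0 to 10697 lower. The 0 calls came without KO 3, WT 1, WT 2 or WT 3. Every such fit has fewer samples, yet 14166 and 9967 probe sets were called without KO 1 or KO 2. Why the arrays differ in this was not tested. The further pathway genes numbered 39 higher after centring on the median, 41 with array weights and 46 at an adjusted p under 0.1, and 2 lower without dim probe sets (mean under 6.83) and 3 lower with array weights, with single-symbol probe sets or at an adjusted p under 0.1. Over all probe sets the lower calls were 2212 after quantile normalization, 3259 after centring, 17432 with array weights, 6774 with single-symbol probe sets and 24774 at an adjusted p under 0.1, where 5902 were higher. The autophagy genes numbered 19 higher after centring, 16 after quantile normalization and 0 lower in each. Genes near no change turned sign. After quantile normalization and centring the changes were 0.30 and 0.29 for Pik3r4, 0.23 and 0.24 for Atg2a, 0.25 and 0.25 for Atg9a, 0.23 and 0.23 for Atg16l1, 0.07 and 0.05 for Atg4d, 0.08 and 0.08 for Tfeb, 0.27 and 0.26 for Tfe3 and 0.22 and 0.30 for Cdk5rap3. Atg4c stood at -0.02 with array weights and Uvrag at -0.02 as the mean of its probe sets. Leaving out each array gave -0.07 to 0.01 for Pik3r4, -0.05 to 0.15 for Atg4c, -0.11 to 0.01 for Tfe3 and -0.06 to 0.04 for Cdk5rap3. Apart from the scalings and the loss of arrays, the cause was not tested. Deviations of same-numbered arrays correlated at 0, 0.2 and 0.14. KO 2 and KO 3 correlated best with WT 2 and WT 3, but KO 1 also correlated best with WT 3, at 0.17. With 3 arrays a group these values cannot settle whether the numbers pair the samples. With the replicate block 10 autophagy genes and 22 further genes rose and 0 fell.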

Other observations

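Of 29 measured genes through which cells sense nutrients, 6 rose and 0 fell by limma's test (20.7%, against 10.7% of protein-coding genes called higher). It was 45.3% of those with a mean log2 signal of at least 8 and 5.41% of those below it. The 29 genes had a median signal of 7.67 on KO-labelled and 7.07 on WT-labelled arrays. The median change of the list was 0.39, and 16 of the 29 had all KO-labelled values above all WT-labelled values, against 23.3% of protein-coding genes. The list joins opposing arms. Prkaa1, a catalytic subunit of the kinase AMPK that starts autophagy at low energy, read 8.57, 10.05 and 8.39 on the KO-labelled arrays, against 7.23, 7.53 and 6.96 on the WT-labelled arrays. It rose by 1.76 ± 0.46 (SE), or 3.39-fold, and 1.24 without KO 2. Prkag1, a regulatory subunit of AMPK, rose by 1.49 ± 0.40 (SE) on the log2 scale. Mtor, the kinase that restrains autophagy when nutrients are plentiful, read 7.65, 8.34 and 7.80 on the KO-labelled arrays, against 7.0, 7.01 and 7.06 on the WT-labelled arrays, and rose 1.87-fold without overlap. Ddit4, a stress-induced inhibitor of mTORC1 signalling, rose 2.93-fold. Fnip1 and Flcn, partners in the folliculin complex, rose 2.30-fold and 1.59-fold.

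Among 7 other transcriptional regulators of autophagy 2 rose and 0 fell, with a median change of 0.37. The share of 28.6% stands against the same 10.7% of protein-coding genes. It was 45.3% of those with a mean of at least 8 and 5.41% of those below it. The 7 regulators had a median signal of 7.61 on KO-labelled and 7.15 on WT-labelled arrays. Foxo1, a factor restrained by insulin signalling, read 7.58, 9.22 and 7.78 on the KO-labelled arrays, against 6.51, 6.54 and 6.48 on the WT-labelled arrays. It rose 3.21-fold. Zkscan3, known as a repressor of autophagy genes, read 8.87, 9.13 and 9.06 on the KO-labelled arrays, against 8.18, 8.04 and 7.70 on the WT-labelled arrays, and rose 2.07-fold.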
